A study of Saccharomyces cerevisiae with 49 samples.

Results

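The 10 genes described here encode proteins of the budding yeast spindle and of the cytoplasmic microtubules that position it. These are the kinesin motors CIN8, KIP1, KAR3, KIP3 and KIP2, the microtubule-associated proteins ASE1, STU2 and BIM1, and the tubulins TUB1 and TUB2. They were taken by gene symbol from a table of 6228 features, and each was measured by 1 probe. Their transcript levels were read from 49 dual-colour arrays of oligonucleotide probes, which covered 3 courses of synchronized cultures. In the alpha-factor course, 17 arrays followed 1 culture of BY4741 bar1- cells up to 150 min after release from mating pheromone. BAR1 encodes the protease that degrades this pheromone. In the cdc28 courses, BY4741 cells with a temperature-sensitive allele of cdc28, named cdc28-13 in the series text, were arrested at high temperature and released by cooling. CDC28 encodes the cyclin-dependent kinase of the cell cycle. The labels name the cdc28 cultures B and E, with 16 arrays each, which reached 225 min in B and 160 min in E. On every array, Cy5-labelled messenger RNA of synchronized cells was set against Cy3-labelled messenger RNA of mid-log, unarrested cells of the same strain. Every level below is the log2 ratio of synchronized over mid-log cells on an array centred on its median, so that 0 is the level of the mid-log cells relative to the average gene. The arrays average over a culture, so the share of cells in a phase and the RNA per cell cannot be told apart.

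The spindle is built of microtubules, hollow polymers of alpha- and beta-tubulin, and pulls the duplicated chromosomes apart. In budding yeast it forms early, between spindle poles set in the nuclear envelope, and remains inside the nucleus. BimC-type kinesins slide antiparallel microtubules apart and push the poles away from each other, and a kinesin that walks to the minus ends works in the opposite direction. Other motors and end-binding proteins set the length of microtubules and guide the spindle into the bud, and bundling proteins hold the spindle midzone together in anaphase.

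Between 4189 and 6110 features had a value on an array, and precision is limited by how many arrays there are. The pheromone arrest was visible in mating genes at 0 min: AGA1, a mating adhesin gene, was at 5.37 after alpha factor, against 1.47 in B and -0.29 in E. BAR1 had values on 0 of 17 alpha-factor arrays. Strain, kind of arrest, temperature and culture differ together between the alpha-factor and cdc28 courses and cannot be told apart. Of the 10 genes, 6 had a value on every array. KIP2, ASE1 and TUB1 each lacked 1 array of culture B, and KIP3 had values on 5 arrays of culture B and 12 of culture E.

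The first question was whether these transcripts oscillate after release. All 10 oscillated after alpha factor, with amplitudes between 0.30 for KIP2 and 0.87 for ASE1. In culture B, 7 of the 9 genes tested oscillated, and 4 of 9 did so in culture E. At an unadjusted p under 0.05 the count was 8 in each, and no share of all features is given for that cut. CIN8, ASE1, STU2 and BIM1 passed the test in all 3 courses. The plot of levels by time shows the successive waves, with 3 after alpha factor. Periodicity was tested in limma with a cosine and a sine term at 1 fixed period for each course, 54 min for the alpha-factor course, 123 min for B and 106 min for E, over a linear trend. These periods were set on G1/S, histone, G2/M and M/G1 genes that include none of the 10. The courses covered 2.78, 1.83 and 1.51 of these periods. A gene was called periodic at a Benjamini-Hochberg adjusted p under 0.05, over all features that had a value on 80% or more of its arrays. By this rule 27.7% of all features were periodic after alpha factor, 14.1% in B and 5.75% in E, and 4.30% were periodic in all 3 courses. The median amplitude of the 10 genes, the fitted distance from mean to peak, was 0.56 after alpha factor, against 0.18 for all features. For the 9 tested genes it was 0.60 in B and 0.38 in E, against 0.17 and 0.15 for all features. Each course is 1 culture, so these p-values measure the spread around a fitted curve and not the spread between cultures. The count depended on the period and the trend: with a period 10% shorter 3 of the 10 passed after alpha factor, and in culture E the count was 1 without a time trend and 7 with a period 10% longer. The count of all features moved too, to 491 in place of 1485 after alpha factor, and to 95 and 444 in place of 329 in culture E. Among the genes called in all 3 courses, CIN8 (limma adjusted p = 0.0837) and STU2 (0.0619) lost the alpha-factor call with a period 10% shorter. ASE1 lost it with a period 10% longer (0.0762). STU2 lost the call in B with a period 10% longer (0.103) and in E with a period 10% shorter (0.186). Without a time trend ASE1, STU2 and BIM1 lost the call in culture E.

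**Figure D1:**
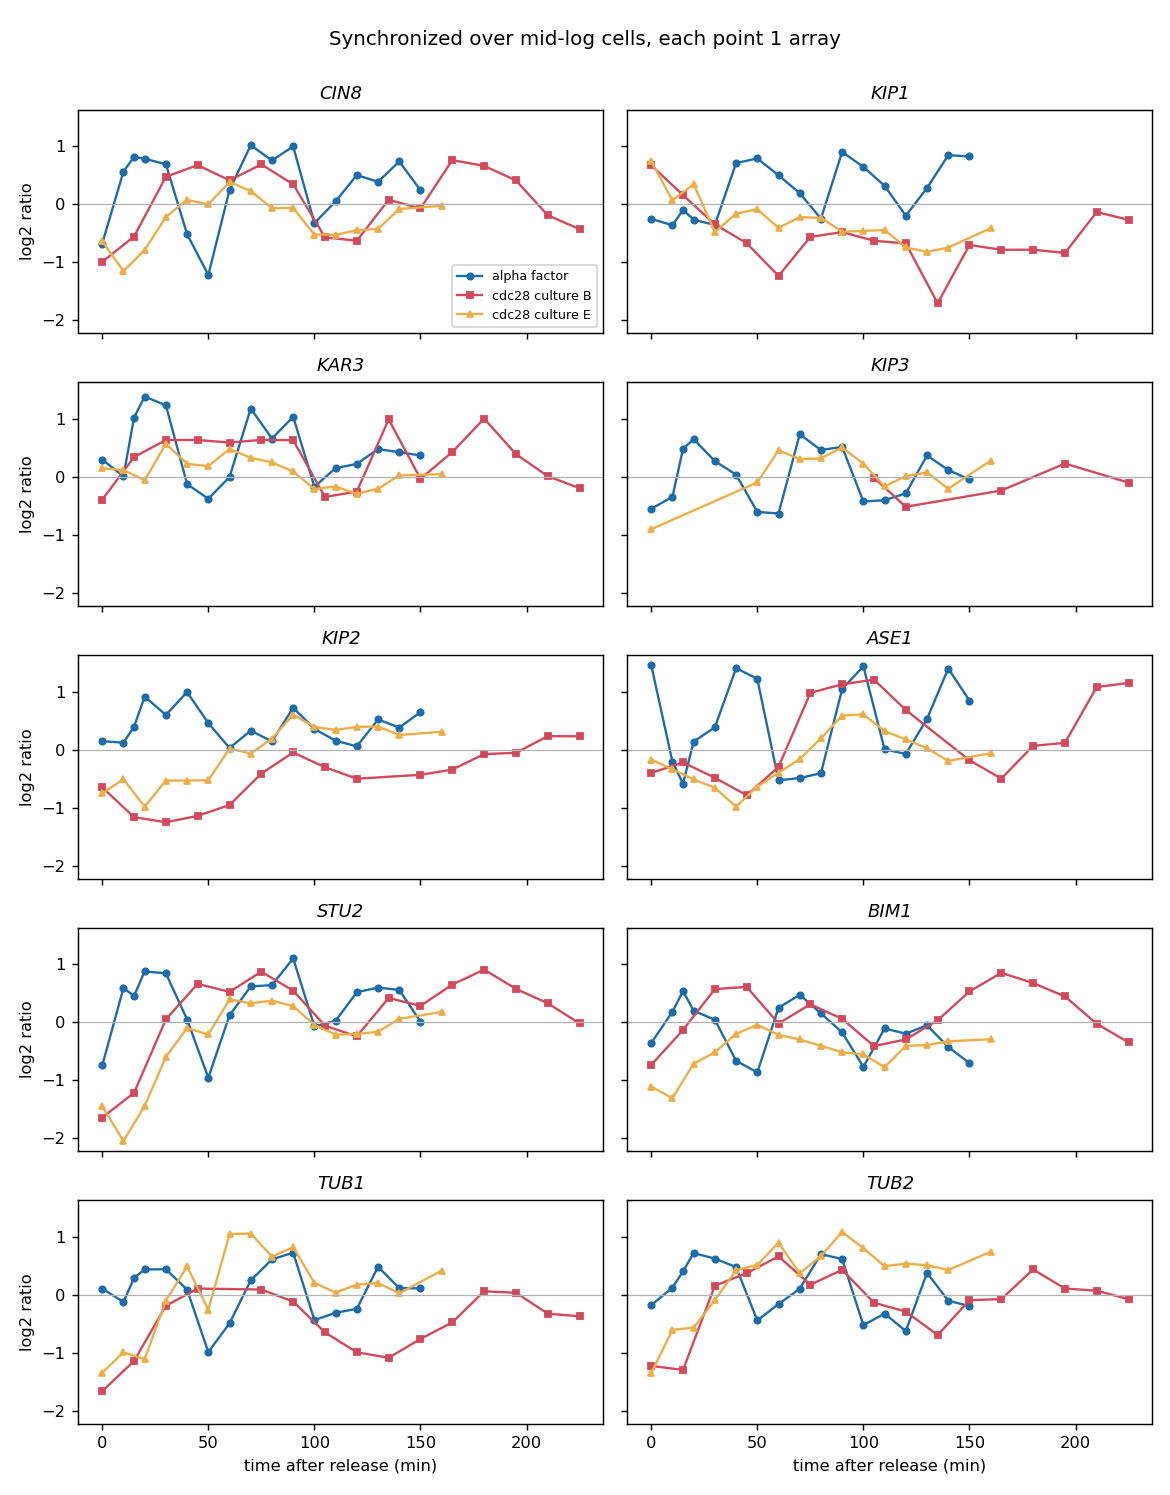
Log2 ratio of synchronized over mid-log cells (y) against minutes after release (x) for the 10 genes, 1 point per array, after alpha factor (blue circles) and in cdc28 cultures B (red squares) and E (orange triangles). CIN8 and ASE1 alternate after alpha factor: CIN8 is at -1.22 at 50 min, when ASE1 is at 1.22.

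Among the motors, CIN8 (YEL061C), a BimC-type kinesin that pushes the spindle poles apart, oscillated most. Its level after alpha factor ran between -1.22 at 50 min and 1.02 at 70 min, with a median of 0.51. It was above 0 from 10 to 30 min, from 60 to 90 min and again from 110 min, and below 0 at 0, 40, 50 and 100 min. In culture B it ran between -0.99 at 0 min and 0.76 at 165 min (median 0.21), and in culture E between -1.15 at 10 min and 0.38 at 60 min (median -0.15). The fitted amplitudes were 0.72 ± 0.13 (SE, 17 arrays), 0.70 ± 0.10 (16 arrays) and 0.46 ± 0.07 (16 arrays). The limma adjusted p were 0.00193, 0.000497 and 0.00345. Its peaks fell at 22.1 ± 1.59, 55.5 ± 2.87 and 61.6 ± 2.77 min.

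KIP1 (YBL063W) encodes the other BimC-type kinesin, which overlaps in function with Cin8. Its probe gave a different course. After alpha factor the level was between -0.36 and -0.10 on all arrays from 0 to 30 min, 0.71 at 40 min and 0.79 at 50 min, and its highest value was 0.90 at 90 min. The amplitude was 0.39 ± 0.10 (SE, 17 arrays) with a peak at 43.9 ± 2.33 min (limma adjusted p = 0.0232). The call was lost without the 40 min array (adjusted p = 0.0686), the 50 min array or the 120 min array. CIN8 peaked before KIP1 in that course, with a difference of -21.8 ± 2.82 min (SE), or -40.4% of the period. In the cdc28 cultures KIP1 was highest in the arrest, at 0.67 in B and 0.75 in E at 0 min, and lowest at -1.70 in B (135 min) and -0.82 in E (130 min). The 135 min array of B held the fewest values of all 49 arrays, and the arrays on either side gave KIP1 -0.67 and -0.70. The medians of KIP1 were -0.65 in B and -0.41 in E. The fitted amplitudes of 0.30 ± 0.17 and 0.10 ± 0.10 did not pass (adjusted p = 0.436 and 0.750). Which transcripts bind the KIP1 probe was not tested.

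KAR3 (YPR141C) encodes the kinesin that walks to microtubule minus ends, in the spindle and, in mating cells, in nuclear fusion. After alpha factor its level ran between -0.37 at 50 min and 1.39 at 20 min, with a median of 0.37. Its amplitude was 0.58 ± 0.12 (SE, 17 arrays), with a peak at 24.8 ± 1.82 min (limma adjusted p = 0.00653). In culture B it stayed between 0.59 and 0.64 on every array from 30 to 90 min, fell to -0.34 at 105 min, and was highest at 180 min, at 1.01. The amplitude of 0.43 ± 0.12 did not pass there (adjusted p = 0.0722). The 135 min array, which held 4189 values, the fewest of all 49, gave KAR3 a level of 0.99, while the arrays on either side gave -0.25 and -0.03. Without it the amplitude was 0.53 with an adjusted p of 0.00149, and 8 of 9 genes were periodic in culture B. When single arrays of B were left out, the count of all features ranged from 595 to 1033, in place of 787. In culture E the levels of KAR3 lay between -0.29 at 120 min and 0.57 at 30 min. The amplitude of 0.23 ± 0.06 had an adjusted p of 0.0560, and passed without the 0, 30 or 50 min array.

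KIP3 (YGL216W) encodes a motor that walks to plus ends and shortens microtubules there. After alpha factor its level ran between -0.63 at 60 min and 0.74 at 70 min, with a median of 0.04. The amplitude was 0.58 ± 0.09 (SE, 17 arrays) and the peak fell at 25.9 ± 1.27 min (limma adjusted p = 0.000479). In culture E the 12 values ran between -0.90 at 0 min and 0.51 at 90 min, and no value was recorded between these from 10 to 40 min. When features with values on 70% of the arrays were admitted, an alternative chosen after seeing the data, the amplitude in culture E was 0.44 ± 0.11 with an adjusted p of 0.0975 and a peak at 75.1 ± 3.74 min. The 5 values of culture B lay between -0.51 and 0.23.

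KIP2 (YPL155C) encodes a motor of the cytoplasmic microtubules that position the spindle. Its level was above 0 on all 17 alpha-factor arrays, between 0.03 at 60 min and 0.99 at 40 min, with a median of 0.38. In the cdc28 cultures it was low early and high late: in B it was lowest at -1.25 at 30 min and highest at 0.23 at 210 min, and in E it was lowest at -0.98 at 20 min and highest at 0.60 at 90 min. The amplitudes were 0.30 ± 0.08 after alpha factor (SE, 17 arrays; limma adjusted p = 0.0274), 0.30 ± 0.07 in B (15 arrays; adjusted p = 0.0301) and 0.27 ± 0.07 in E (16 arrays; adjusted p = 0.0724). The amplitudes after alpha factor and in B were the smallest among the genes called there, and 1 array could end the call. After alpha factor it was lost without the 40 min (adjusted p = 0.0826), 60, 90 or 120 min array, and in culture B without the 90 min (0.110), 30, 45 or 75 min array. In culture E it was gained without the 0 or 160 min array.

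ASE1 (YOR058C), for the protein that bundles antiparallel microtubules at the spindle midzone, had the largest amplitude of the 10 genes in the alpha-factor course and in B. After alpha factor it was at 1.46 at 0 min, 1.40 at 40 min, 1.44 at 100 min and 1.40 at 140 min, and the lowest value was -0.59 at 15 min. The highest values of the later waves were thus close to the level in the arrest. In culture B it ran between -0.79 at 45 min and 1.21 at 105 min (median 0.07), and in culture E between -0.98 at 40 min and 0.61 at 100 min (median -0.17). The amplitudes were 0.87 ± 0.15 (SE, 17 arrays), 0.81 ± 0.11 (15 arrays) and 0.52 ± 0.04 (16 arrays), with limma adjusted p of 0.00144, 0.000851 and 5.25e-05. ASE1 peaked later than CIN8 in each course, by 19.7 ± 2.20 min (SE) after alpha factor, 41.9 ± 4.14 min in B and 33.7 ± 3.12 min in E.

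STU2 (YLR045C) encodes a microtubule polymerase needed for spindle and kinetochore microtubules. Its level after alpha factor ran between -0.96 at 50 min and 1.10 at 90 min, with a median of 0.52. In both cdc28 cultures its lowest values came at the start, at -1.64 at 0 min in B and -2.04 at 10 min in E, and its highest were 0.91 at 180 min in B and 0.40 at 60 min in E. The amplitudes were 0.64 ± 0.11 (SE, 17 arrays; limma adjusted p = 0.00144), 0.67 ± 0.14 (16 arrays; 0.0135) and 0.60 ± 0.12 (16 arrays; 0.0243). The call in culture E was lost without the 60 min array (adjusted p = 0.0820) and without the 20, 70 or 80 min array.

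BIM1 (YER016W) encodes the end-binding protein that tracks growing plus ends and recruits other proteins to them. Its fitted peak was the earliest of the genes tested in every course. KAR3, not called periodic in B or E, was next there, at 52.0 ± 6.04 and 60.2 ± 4.39 min (SE). BIM1, at 46.7 ± 2.80 and 55.0 ± 3.72 min, was not separated from KAR3 in these cultures, as the SE ranges overlapped. After alpha factor it ran between -0.86 at 50 min and 0.54 at 15 min (median -0.11), in culture B between -0.74 at 0 min and 0.85 at 165 min (median 0.05), and in culture E between -1.31 at 10 min and -0.04 at 50 min (median -0.41). Its level in culture E was thus below 0 on all 16 arrays. The amplitudes were 0.48 ± 0.07 (SE, 17 arrays; limma adjusted p = 0.000608), 0.56 ± 0.08 (16 arrays; 0.000397) and 0.33 ± 0.07 (16 arrays; 0.0239). In culture E the call was lost without the 50 min array (adjusted p = 0.0731) and without the 40, 60, 70 or 110 min array.

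The tubulin genes moved closely together. TUB1 (YML085C), for the major alpha-tubulin, ran between -0.99 at 50 min and 0.73 at 90 min after alpha factor (median 0.11). TUB2 (YFL037W), for the beta-tubulin, ran between -0.62 at 120 min and 0.72 at 20 min (median 0.11). Both were low at the start of the cdc28 courses: TUB1 was at -1.66 in B and -1.34 in E at 0 min, and TUB2 at -1.22 and -1.35, with its lowest value in B, -1.29, at 15 min. TUB1 then reached 0.11 at 45 min in B and 1.06 at 70 min in E, and TUB2 reached 0.66 at 60 min in B and 1.08 at 90 min in E. In culture B both were low again at 135 min, at -1.08 for TUB1 and -0.69 for TUB2, on the array with the fewest values. The arrays on either side gave -0.99 and -0.76 for TUB1, and -0.29 and -0.09 for TUB2. The amplitudes of TUB1 were 0.52 ± 0.10 (SE, 17 arrays), 0.68 ± 0.10 (15 arrays) and 0.63 ± 0.15 (16 arrays), with limma adjusted p of 0.00248, 0.00134 and 0.0527. Those of TUB2 were 0.54 ± 0.08, 0.60 ± 0.12 and 0.38 ± 0.13, with adjusted p of 0.000376, 0.0110 and 0.224. TUB1 passed in culture E without the 0, 50 or 160 min array. The peaks of TUB1 and TUB2 differed by -0.96 ± 1.96 min (SE) after alpha factor, -0.13 ± 4.94 min in B and 0.15 ± 7.32 min in E, less than the SE in each course. TUB3 (YML124C), for the minor alpha-tubulin, is close to TUB1 in sequence, and whether the probes of TUB1 and TUB3 separate the transcripts was not tested. TUB3 was periodic in all 3 courses with amplitudes of 0.56, 0.66 and 0.41 and peaks at 32.4, 76.4 and 77.6 min, and TUB1 peaked at 27.2, 65.3 and 68.8 min.

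The range of levels became smaller with time in most of these genes. Within successive windows of 1 period after alpha factor, the distance from the lowest to the highest value of CIN8 was 2.04, 1.34 and 0.69, and that of STU2 was 1.83, 1.17 and 0.59. ASE1 kept more of its range, with 2.04, 1.96 and 1.47, and KIP1 gave 1.15, 1.15 and 1.04. All 10 genes had a smaller range in the third window than in the first, and in culture B 8 of 9 had a smaller range in the second window, KAR3 being the exception with 1.20 in the second, against 1.03 in the first. The windows do not hold equal numbers of arrays (7, 5 and 5 after alpha factor), and the loss was not tested. The first window also holds the 0 min array of the arrest. In culture B that array gave CIN8, KAR3, STU2, BIM1 and TUB1 their lowest value of the window, and KIP1 its highest. Ranges over all features are not given here.

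The next question was the order in which the genes peaked. After alpha factor the sequence of fitted peaks was BIM1, CIN8, STU2, KAR3, KIP3, TUB1, TUB2, KIP2, ASE1 and KIP1. In culture B the 7 periodic genes came in the sequence BIM1, CIN8, STU2, TUB1, TUB2, KIP2 and ASE1, and in culture E the 4 periodic genes in the sequence BIM1, CIN8, STU2 and ASE1. The peak timing plot sets these against the histone genes, whose mean peak fell at 22.3 ± 0.73 min (SD, 9 genes) after alpha factor, 53.5 ± 3.72 min in B and 61.3 ± 1.71 min in E. CIN8 peaked within 1.98 min of the histones in all 3 courses, at -0.17, 1.98 and 0.32 min. BIM1 came before them, at -4.64, -6.81 and -6.26 min. Its peaks at 17.7 ± 1.40, 46.7 ± 2.80 and 55.0 ± 3.72 min (SE) came after the mean peaks of the G1/S genes at 11.7, 34.2 and 40.7 min. The peaks of STU2, at 24.1 ± 1.49, 59.6 ± 4.37 and 67.7 ± 3.60 min (SE), came 1.78, 6.10 and 6.45 min after the histones. These lags were below 2 SE of the peak in each course, so STU2 was not separated from the histones. TUB1 followed them by 4.94 min after alpha factor and 11.8 min in culture B. ASE1 peaked at 41.8 ± 1.53, 97.3 ± 2.99 and 95.3 ± 1.43 min, beside a mean of 40.2 ± 3.66 (SD, 13 genes), 94.0 ± 6.85 (11 genes) and 91.6 ± 4.87 min (12 genes) for the G2/M genes.

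Most neighbours in this order could not be separated. After alpha factor the gaps between CIN8, STU2, KAR3, KIP3, TUB1 and TUB2 were between 0.71 and 1.95 min, each smaller than its SE of 1.96 to 2.35 min. The gaps that reached more than 2 SE were those from BIM1 to CIN8 (4.47 ± 2.11 min), from TUB2 to KIP2 (6.18 ± 2.49 min) and from KIP2 to ASE1 (7.47 ± 2.66 min). The SE of a gap, like that of every difference between peaks here, treats both genes as independent, though they were read on the same arrays. It also takes the period as known. In culture B the gap from BIM1 to CIN8 was 8.79 ± 4.01 min and the gap from TUB2 to KIP2 was 29.8 ± 6.37 min, while KIP2 and ASE1 lay 2.15 ± 5.71 min apart. Whether the oscillation of KIP2 differed between the alpha-factor course and B did not pass the interaction test described next (adjusted p = 0.647). In culture E the gap from BIM1 to CIN8 was 6.59 ± 4.64 min and the gap from STU2 to ASE1 was 27.5 ± 3.88 min.

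**Figure D2:**
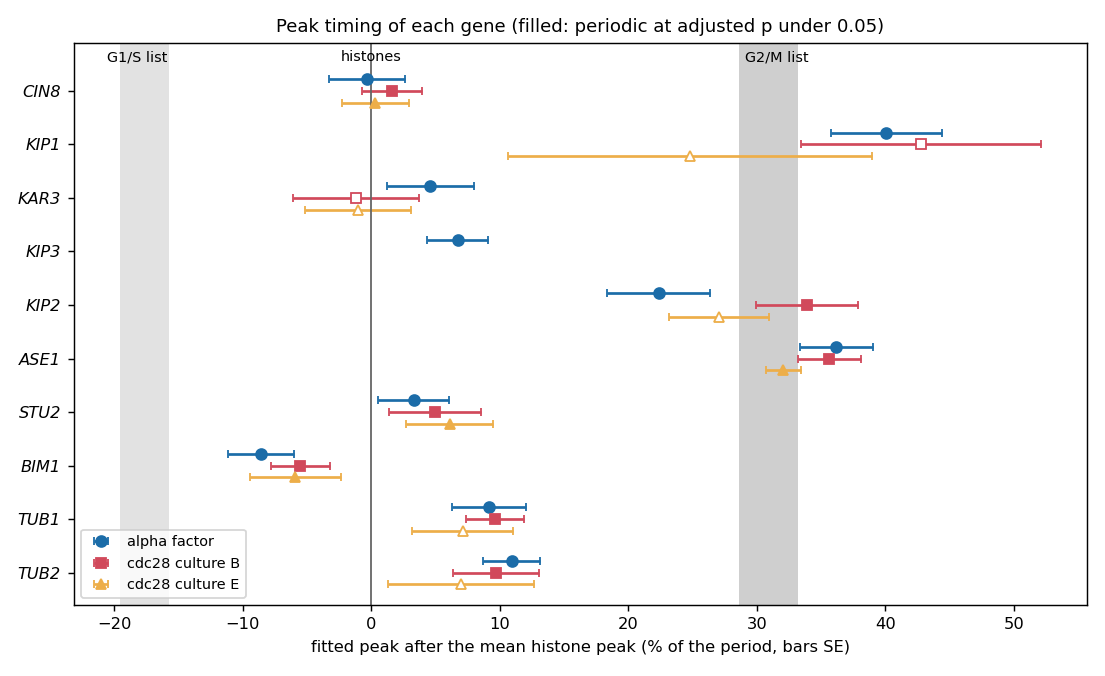
Fitted peak of each gene after the mean histone peak, in percent of the period of its course (x, bars SE), after alpha factor (circles) and in cdc28 cultures B (squares) and E (triangles), filled where periodic at an adjusted p under 0.05. Grey bands span the mean peaks of the G1/S and G2/M lists over the 3 courses; CIN8 lies at -0.32, 1.61 and 0.31%, and ASE1 at 36.2, 35.7 and 32.1%.

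Whether the oscillation of a gene differed between courses was tested with an interaction term in limma, after the times of each course were set to its histone peak and period. Of the 9 genes tested, 0 differed between alpha factor and culture B (0% of all features), 0 between alpha factor and culture E (0.0197% of all features) and 0 between cultures E and B (0% of all features). At an unadjusted p under 0.05, a cut for which no share of all features is given, these counts were 0, 1 and 1. The amplitude after alpha factor minus that in culture B ranged between -0.16 ± 0.14 (SE) for TUB1 and 0.15 ± 0.17 for KAR3. Alpha factor minus culture E ranged between -0.11 ± 0.18 for TUB1 and 0.35 ± 0.16 for ASE1, and was 0.35 ± 0.13 for KAR3, the gene with an unadjusted p of 0.0466 (adjusted p = 0.255). The amplitude in culture E was below that in culture B for all 9 genes, by as much as -0.29 ± 0.12 for ASE1 (unadjusted p = 0.0419, adjusted p = 0.622) and as little as -0.03 ± 0.10 for KIP2. The median amplitude of all features was also lower in E, at 0.15 in E and 0.17 in B. The array names begin with yoG in culture E, and with yofG in culture B and after alpha factor. This prefix and the culture cannot be told apart. Phases in the alpha-factor course and in B differed by between -11.5% of the period for KIP2 and 5.83% for KAR3.

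**Figure D3:**
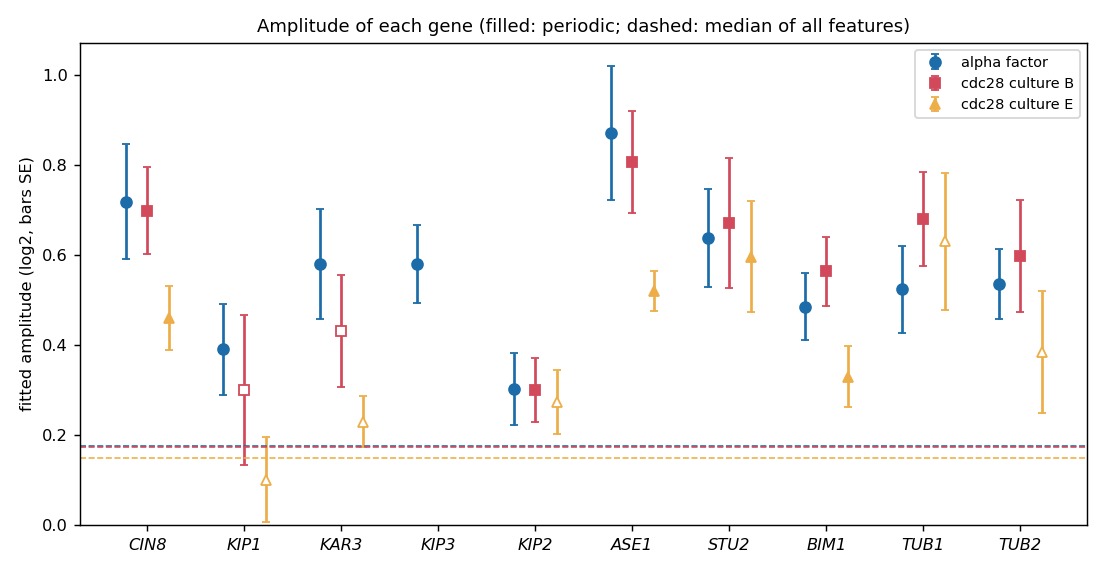
Fitted amplitude of each gene (y, log2, bars SE) after alpha factor (circles) and in cdc28 cultures B (squares) and E (triangles), filled where periodic at an adjusted p under 0.05; dashed lines mark the median of all features. ASE1 has the largest amplitude after alpha factor (0.87) and in B (0.81), and KIP1 in culture E (0.10) is the only value under the line of its course.

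The likeness of the profiles was described by the Pearson correlation over the arrays of a course, which share the mid-log reference, the culture and the time points. The highest value among pairs with at least 15 shared arrays in each course belonged to CIN8 and STU2, at 0.93 after alpha factor, 0.85 in B and 0.85 in E. TUB1 and TUB2 followed with 0.82, 0.91 and 0.87. KIP1 was negatively correlated with STU2 (-0.26, -0.72 and -0.66) and with CIN8 (-0.30, -0.54 and -0.36). ASE1 ran opposite to BIM1 after alpha factor (-0.87) and less so in B (-0.44) and E (-0.17). By the mean of the 3 courses KIP2 was the closest to ASE1 among the 10 genes, with 0.43, 0.71 and 0.78, although after alpha factor KIP1 was closer (0.56).

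**Figure D4:**
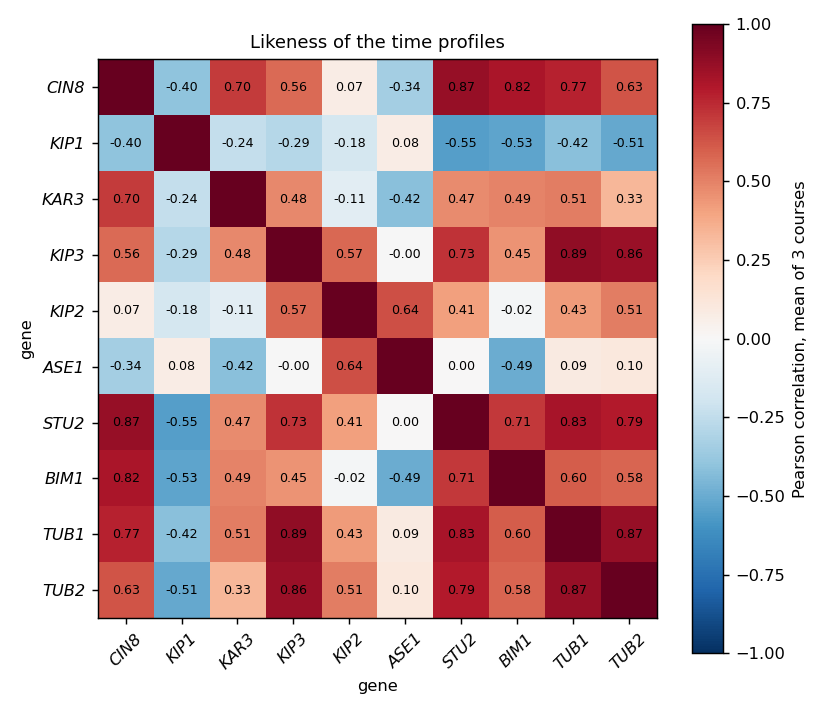
Pearson correlation between the time profiles of each pair of the 10 genes, as the mean of the correlations within the 3 courses (colour scale from -1 to 1, values printed). KIP1 is negative with every gene but ASE1 (0.08), and CIN8 and STU2 reach 0.87; values with KIP3 rest on up to 17, 5 and 12 arrays.

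Among up to 4789 named genes with at least 12 shared arrays in each course, those closest to each gene were ranked by the mean of the 3 correlations. Closest to CIN8 were SPC110, for a spindle pole body component (0.91), PDS1 for securin (0.91) and the histone gene HTB2 (0.88). For BIM1 these were PDS1 (0.91) and the cell wall genes SVS1 (0.88) and TOS6 (0.88). For STU2 they were WHI5, for a repressor of the G1/S step (0.92), the DNA helicase gene SRS2 (0.92) and the linker histone gene HHO1 (0.88). The profile of TUB1 was closest to the cell wall genes SIM1 (0.95) and CIS3 (0.94) and to MSB4 (0.88), and that of TUB2 to CIS3 (0.90), TUB1 (0.87) and DAM1, for a subunit of the ring that couples kinetochores to microtubules (0.86). ASE1 lay closest to YNL058C (0.92), MMR1 (0.91) and MOB1, of the mitotic exit network (0.89), and KIP2 to PBY1 (0.83), the kinase gene FRK1 (0.82) and CDC5, for the polo kinase (0.82). KAR3 had lower values, with SVL3 (0.79), SLI15 of the chromosomal passenger complex (0.76) and the checkpoint kinase gene BUB1 (0.73). KIP1 was closest to GCV3, for a subunit of the glycine cleavage system, with 0.97 after alpha factor, 0.84 in B and 0.97 in E. The next were MTD1, of folate metabolism (mean 0.83), and GCV2, for another subunit of glycine cleavage (0.81). KIP3 had too few values for this ranking.

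At 0 min the arrests themselves were compared. ASE1 was the only one of the 9 genes tested that passed, with a higher level on the single array of the pheromone arrest. Its level was 1.46 after alpha factor, against -0.40 in B and -0.17 in E, a difference of 1.74 ± 0.34 (SE; 1 alpha-factor array, 2 cdc28 arrays; limma adjusted p = 0.0293). The SD of the cdc28 pair was 0.16. Of all features 3.71% passed in this comparison, with 2.49% higher and 1.22% lower. An unadjusted p under 0.05 was found for 5 of the 9 genes, and the share of all features at that cut is not given. TUB1 was at 0.11 after alpha factor, against -1.66 and -1.34 in cultures B and E (difference 1.61 ± 0.53, adjusted p = 0.124). TUB2 was at -0.18, against -1.22 and -1.35 (1.11 ± 0.41, adjusted p = 0.145). STU2 was at -0.74, against -1.64 and -1.45 (0.80 ± 0.33, adjusted p = 0.188). KIP1 was the reverse, at -0.25 after alpha factor, against 0.67 and 0.75 (-0.96 ± 0.35, adjusted p = 0.143). The alpha-factor levels of these 4 lay outside the cdc28 pair but did not pass. The same held for KIP2, at 0.15, against -0.65 and -0.75 (difference 0.85 ± 0.53). It also held for BIM1, at -0.36, against -0.74 and -1.11 (0.56 ± 0.45), and KAR3, at 0.30, against -0.39 and 0.15 (0.42 ± 0.34). CIN8 was low in both arrests, at -0.67 after alpha factor, against -0.99 and -0.64. The pheromone arrest has 1 array, so its spread was borrowed from the cdc28 pairs, and with quantile normalization the difference of ASE1 was 1.26 with an adjusted p of 0.115. Its array name carries the letter B where both cdc28 names at 0 min carry T. With the array letter as a covariate the difference was 2.07 (adjusted p = 0.00622), but at 30 to 120 min the letter of the cdc28 arrays goes with the culture, T in B and B in E.

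The last question was which of these transcripts changed after the cdc28 cultures were released, at 30, 60, 90 and 120 min, each set against the same pair of 0 min arrays. The comparisons are therefore not independent of each other. STU2 rose at all 4 times, TUB2 rose at 60 and 90 min, and KIP1 fell at 60 and 120 min. TUB1 passed at 60 min on the array of culture E alone. KIP3 had too few values to be tested. The number of the 9 tested genes that passed was 1 at 30 min, 4 at 60 min, 2 at 90 min and 2 at 120 min. Over all features 5.32%, 4.42%, 3.15% and 2.43% passed. The rises were 1, 3, 2 and 1 genes, beside 2.42%, 1.97%, 1.36% and 1.16% of all features, and the falls 0, 1, 0 and 1, beside 2.89%, 2.45%, 1.79% and 1.27%. At an unadjusted p under 0.05 the counts were 7, 6, 6 and 5, and the shares of all features above do not apply to that cut. The median change of the 9 genes was 0.94, 0.80, 0.98 and 0.65, beside medians of all features between -0.02 and 0.02.

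At 60 min STU2 was at 0.52 and 0.40 in B and E, against -1.64 and -1.45 at 0 min. Its change was 1.27 ± 0.27 (SE, 2 arrays each) at 30 min, 2.00 ± 0.27 at 60 min, 1.95 ± 0.27 at 90 min and 1.32 ± 0.27 at 120 min, with limma adjusted p of 0.0285, 0.00604, 0.00506 and 0.0393. The arrays of both cultures lay above both 0 min arrays at every time. TUB2 was at 0.66 and 0.90 in B and E at 60 min, against -1.22 and -1.35 at 0 min, a change of 2.07 ± 0.33 (adjusted p = 0.0106). At 90 min it was at 0.43 and 1.08, a change of 2.04 ± 0.33 (adjusted p = 0.0117). Its changes of 1.32 at 30 min (adjusted p = 0.0552) and 1.41 at 120 min (0.0633) passed with the cultures as a replicate block, at 0.0279 and 0.0325.

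TUB1 at 60 min had a value in culture E alone, 1.05, against -1.66 and -1.34 at 0 min in B and E, and the fitted change was 2.55 ± 0.53 (SE; limma adjusted p = 0.0400). The single array is assumed to vary like the pairs of the other groups, and the change did not pass with quantile normalization (adjusted p = 0.121). At 30 min TUB1 was at -0.19 and -0.10, a change of 1.36 ± 0.44 (adjusted p = 0.123, and 0.0353 with the replicate block). At 90 min it was at -0.11 and 0.82, a change of 1.85 ± 0.44 (adjusted p = 0.0629, and 0.0180 with the block). At 120 min the cultures parted, at -0.99 in B and 0.18 in E.

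KIP1 fell to -1.23 and -0.40 in B and E at 60 min, against 0.67 and 0.75 at 0 min, a change of -1.53 ± 0.28 (SE; limma adjusted p = 0.0201). At 120 min it was at -0.67 and -0.74, a change of -1.42 ± 0.28 (adjusted p = 0.0371). Its changes of -1.12 at 30 min (adjusted p = 0.0571) and -1.18 at 90 min (0.0620) passed with the replicate block, at 0.0333 and 0.0341. CIN8 was at 0.41 and 0.38 at 60 min, against -0.99 and -0.64 at 0 min, with a change of 1.21 ± 0.29 (adjusted p = 0.0522, and 0.0335 with the block). ASE1 was at 1.13 and 0.59 at 90 min, against -0.40 and -0.17, with a change of 1.14 ± 0.28 (adjusted p = 0.0629, and 0.0271 with the block). At 30 min ASE1 was lower in both cultures than at 0 min, at -0.48 and -0.66 (change -0.28 ± 0.28, adjusted p = 0.603). The changes of KAR3, KIP2 and BIM1 did not pass at any of the 4 times. BIM1 at 30 min was at 0.57 in B and -0.51 in E, a gap larger than its change of 0.95 ± 0.37. With quantile normalization the counts were 0, 2, 2 and 1, and fewer of all features passed at each time. The changes that then did not pass were those of STU2 at 30 and 120 min (adjusted p = 0.0827 and 0.0972), of TUB1 at 60 min, and of TUB2 at 60 and 90 min (1.93 and 1.91, adjusted p = 0.0528 and 0.0545), while ASE1 at 90 min passed (1.17, adjusted p = 0.0431). KIP1 at 60 and 120 min and STU2 at 60 and 90 min passed in both.

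**Figure D5:**
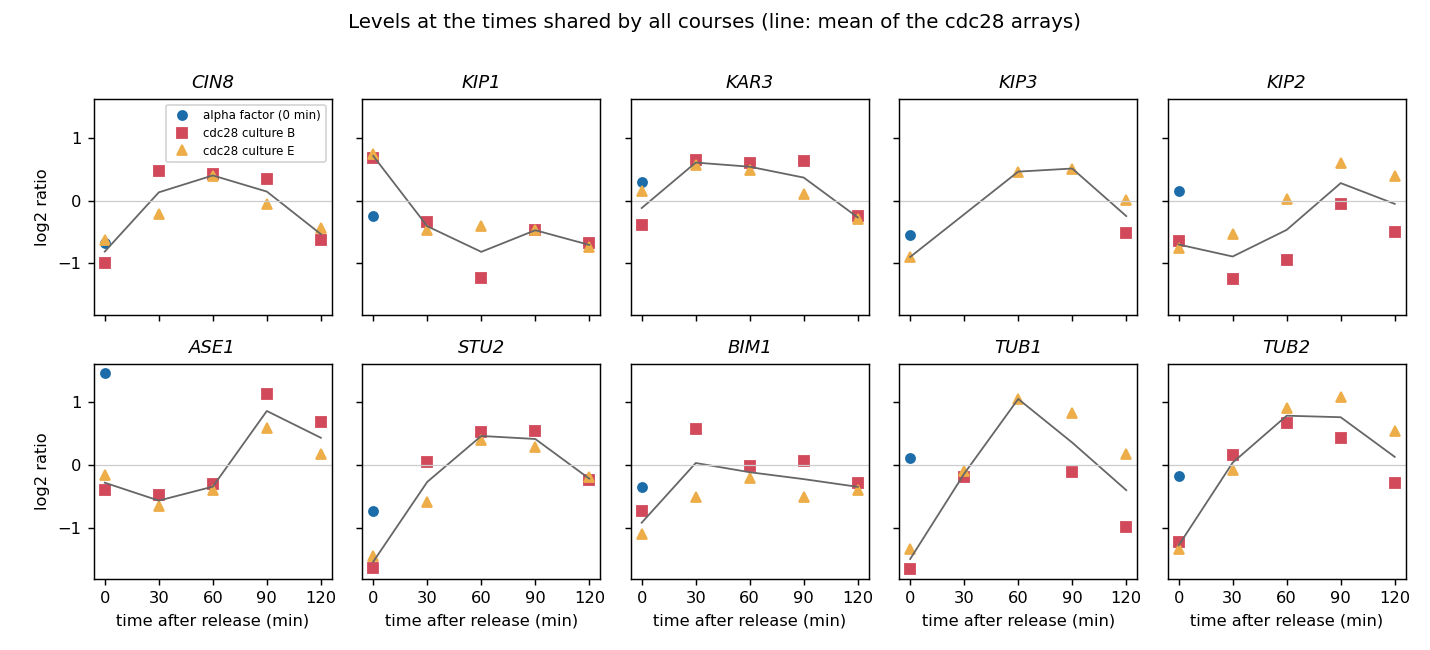
Log2 ratio of each gene (y) at the times that all courses share (x, minutes after release), for cdc28 cultures B (squares) and E (triangles) with the mean of the cdc28 arrays as a line, and for alpha factor at 0 min (circle). STU2, TUB1 and TUB2 start at or below -1.22 in the cdc28 arrest and lie above it at every later time, while KIP1 starts at 0.67 and 0.75.

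Other genes of the same machinery were read from lists of motor partners, microtubule-binding proteins, other tubulins with the nucleating complex, and cell cycle transcription factors. Their counts stand beside 27.7% of all features periodic after alpha factor, 14.1% in B and 5.75% in E. Of the motor partners, 3 of 3 were periodic after alpha factor, 0 of 2 in B and 2 of 3 in E. VIK1 and CIK1 encode the light chains of Kar3. VIK1 had an amplitude of 0.78 and a peak at 27.9 min after alpha factor, and CIK1 an amplitude of 0.54 and a peak at 31.3 min. In culture E their amplitudes were 0.39 and 0.43, and CIK1 in culture B had 0.43 at a limma adjusted p of 0.0504. VIK1 had too few values to be tested in B. Of the microtubule-binding proteins 5 of 7, 3 of 6 and 2 of 6 were periodic. SLK19, of the kinetochore and midzone, was periodic in all 3 courses with amplitudes of 0.71, 0.79 and 0.37 and peaks at 16.6, 45.0 and 48.9 min. FIN1, for a filament protein of the late spindle, was also periodic in all 3, with 0.52, 0.54 and 0.33, and peaked later, at 29.8, 76.2 and 80.7 min.

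Of the other tubulins and nucleation genes 5 of 6, 3 of 5 and 3 of 6 were periodic, beside the same 27.7%, 14.1% and 5.75% of all features. SPC98, of the gamma-tubulin complex, had the largest amplitude after alpha factor (1.08) and in culture E (0.54), with peaks at 22.0 and 64.6 min. It had too few values to be tested in B. SPC110, which anchors that complex at the spindle pole, was periodic in all 3 courses with amplitudes of 0.66, 0.68 and 0.38 and peaks at 20.6, 47.2 and 56.8 min. Of the transcription factors 7 of 8, 5 of 6 and 4 of 7 were periodic. HCM1, an activator of S-phase genes, had an amplitude of 1.00 and a peak at 14.2 min after alpha factor, and too few values to be tested in B and E. Periodic in all 3 courses were the forkhead genes FKH1 (1.29, 0.84 and 0.66) and FKH2 (0.47, 0.50 and 0.30), NDD1, the coactivator of the G2/M genes (0.59, 0.79 and 0.46), and SWI6, of the G1/S complexes (0.38, 0.38 and 0.25). The median amplitude was 0.60 for the transcription factors and 0.63 for the tubulin and nucleation list after alpha factor, beside 0.56 for the 10 genes and 0.18 for all features.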

How the data were processed

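Per the labels, Cy5 marked synchronized cells and Cy3 mid-log cells. The authors deposited log ratios, taken here as log2 of Cy5 over Cy3, with the direction from these dyes. The table states neither log base, nor centring, nor direction. How arrays were scanned, background-corrected and normalized is not given in the sources used for this work. The lowest correlation of 2 arrays was -0.295, and array medians lay between -0.071 and 0.021. Of 6258 probes, 5570 carried 1 gene symbol and 688 none. Probes of a gene were averaged, and each array was centred on its median.

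limma 3.58.1 in R 4.3.3 fitted each course alone, with the period between 40 and 160 min that gave the marker lists the highest median gain in R2. Contrasts used the 15 arrays at 0, 30, 60, 90 and 120 min in 10 groups, with 5 residual and 4.21 prior degrees of freedom. Tests were two-sided or F-tests, adjusted by Benjamini-Hochberg over all features with values on at least 80% of arrays. Scripts were tested on simulated data. The cdc28 cultures are the same across times per the labels, so they were also fitted as a block: the differences of E minus B correlated between times with a median of 0.55 (range -0.07 to 0.87).

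The genes and lists were chosen with earlier results of these data known. Named are the 10 genes, the 3 genes most like each, and from the other lists genes periodic in all courses and the 2 with the largest median amplitude among genes called. A list gene may be named under both parts. For these lists 5 genes are not used here. Sequences and coordinates are not used here.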

Additional observations from a re-analysis of the deposited data

How the results depend on the processing

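The counts of members past the threshold depended on the setting as follows. After alpha factor the 10 periodic genes became 3 with a period 10% shorter, where 491 features passed in place of 1485. In culture B the 7 of 9 became 4 of 6 when values on every array were required, since KIP2, ASE1 and TUB1 each lack an array there and were not tested. In culture E the 4 became 7 with a period 10% longer, 7 with quantile normalization, 7 at the period of culture B, 7 without the 0 min array and 1 without a time trend. In these settings 444, 575, 518, 515 and 95 features passed, in place of 329. Leaving out each array in turn gave 8 to 10 after alpha factor, 6 to 8 in B and 2 to 7 in E, with 2 without the 60 or 70 min array. In these fits 1081 to 1599, 595 to 1033 and 196 to 571 of all features passed. For all features the counts over the settings were 491 to 1746, 462 to 1086 and 95 to 575. The arrest count became 0 with quantile normalization, where 14 features passed in place of 207. Among the cdc28 changes, quantile normalization gave 0 at 30 min, 2 at 60 min and 1 at 120 min, where 96, 131 and 110 features passed. The array letter as a covariate gave 5, 6 and 4 at 30, 90 and 120 min, where 631, 481 and 350 features passed. The replicate block of cultures B and E gave 4 at 30 min and 5 at 90 min. With that block 625, 571, 454 and 409 features passed at the 4 times, in place of 296, 247, 176 and 136. Direction turned for CIN8 at 120 min with quantile normalization (a change of -0.071), and for KIP2 (-0.17) and ASE1 (0.10) at 60 min with the array letter; these changes had not passed. With quantile normalization 57.1% of the arrest calls were higher after alpha factor, in place of 67.1%, and 34.4% of those at 30 min were rises, in place of 45.6%. The difference tests between courses gave 0 members at every setting, while all features gave 1 to 226 for alpha factor against culture E and 0 to 6 for E against B. Without culture B or E the contrasts have no residual degrees of freedom, so they give values with no test. Over all genes, comparisons and settings, 48 single-gene values gained a call, 45 lost one and 3 turned direction. Another 46, without culture B or E, have no test and moved, and 1131 showed none of these. The periodic fit without the 0 min array entered these counts both as a setting of its own and as a leave-one-out fit. The calls that KAR3, KIP2 and TUB1 gained by it in culture E were thus counted under both. Causes were not tested. The 0 min arrays, the number of arrays and the single culture of each course limit these results.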

Other observations

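Genes of tubulin folding, of dynein and dynactin and of the chromosomal passenger complex were also read. Tubulin folding genes, for the cofactors and prefoldin, passed the test for periodicity in 2 of 12 cases after alpha factor, in 0 of 11 in B and in 1 of 12 in E, beside 27.7%, 14.1% and 5.75% of all features. At an unadjusted p under 0.05 there were 5, 2 and 1, and for such counts, here and below, no share of all features is given. Their median amplitudes were 0.21, 0.11 and 0.10, beside 0.18, 0.17 and 0.15 for all features. CIN2, for a tubulin folding factor, had the largest amplitude of the list in the courses where it was tested. It was 0.89 with a peak at 12.7 min after alpha factor and 0.45 with a peak at 47.4 min in culture E. CIN2 had too few values to be tested in B. RBL2, which binds beta-tubulin, had 0.34 after alpha factor (limma adjusted p = 0.0472).

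Of the dynein and dynactin genes 4 of 10, 3 of 11 and 0 of 11 passed, beside the same shares of all features, with 3 at an unadjusted p under 0.05 in culture E. NDL1, a dynein regulator, had an amplitude of 1.07 and a peak at 47.7 min after alpha factor, and DYN3, a dynein subunit, an amplitude of 0.47. Of the chromosomal passenger genes 1 of 3, 2 of 2 and 0 of 3 passed, with 2 at an unadjusted p under 0.05 in culture E. IPL1, the Aurora kinase, had amplitudes of 0.33, 0.32 and 0.18, and SLI15, its activator, 0.30, 0.34 and 0.30.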
